A study of Drosophila melanogaster with 6 samples.

Results

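Genes of the mitochondrial ribosome were followed in dissociated Drosophila melanogaster brains, in 6 single-cell RNA libraries. The members were all features whose symbol starts with mRpL (large subunit) or mRpS (small subunit). This gave 73 of the 22064 features in the count tables, 47 named mRpL and 26 named mRpS. Subunits given below follow the symbol, which need not match the place of the protein, as for mRpS30. Counts of unique molecular identifiers (UMIs, 1 per captured RNA molecule) were obtained for 72 of the 73. The remaining member, mRpL53 on arm 2R, had 0 UMIs in every library. Its exons lie wholly within those of CG33155 on the same strand, which held 1157 UMIs. The genes tko and bonsai encode small-subunit proteins too, but their symbols leave them outside the rule. They are given beside the members.

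The 3 control libraries carried the genotype elav-GAL4(x)/+, a pan-neuronal driver transgene without a target. The 3 knock-in libraries carried the genotype labelled elav-tau P251L KI, in which the fly tau gene holds an amino acid change. The labels do not say whether the knock-in flies carry the same driver insertion as the controls, nor do they give the age. Each library pooled brains of 20 male and 20 female flies, dissociated with trypsin, so the library is the replicate and single animals cannot be separated.

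Mitochondrial ribosomes translate the few proteins encoded by mitochondrial DNA, all of them parts of the respiratory chain and of ATP synthase. Their RNAs come from the mitochondrial genome, but every protein of the ribosome is encoded in the nucleus, made in the cytosol and imported. Respiratory complexes therefore need both genomes, and in brains, where neurons rely heavily on oxidative phosphorylation, loss of mitochondrial translation causes seizures and degeneration. The fly gene tko, for technical knockout, is the classic case, since its mutants are paralysed by mechanical shock.

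The libraries held 22026339 to 103683860 UMIs in the controls and 37984526 to 114599045 in the knock-in group. Barcodes with at least 1000 UMIs were taken as cells, 101719 in all, and these held 870167 UMIs of members. Any 2 libraries shared at most 1.02% of the barcodes of the smaller one. The median share of mitochondrially encoded UMIs per barcode was 3.21% to 4.28% in the controls and 5.86% to 6.55% in the knock-in libraries. A list of 5 fat body genes, all of them detected, summed to 685 to 7423 counts per 1000000 UMIs (CPM) in the controls and to 9.84 to 617 in the knock-in libraries. The part of these differences in the results below was not tested. Barcodes under 100 UMIs, which hold mostly free RNA, carried 1831 to 4199 member CPM, a range that spans the levels found in cells.

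Cells were gated by a single gene each, with the other 4 gate genes at 0 UMIs. VAChT marks cholinergic, VGlut glutamatergic and Gad1 GABAergic neurons, prt marks the Kenyon cells of the mushroom body, and repo marks glia. The prt gate was allowed VAChT, since Kenyon cells are cholinergic. The gates held 37214, 15087, 9550, 4315 and 449 barcodes in that order, and the repo gate held only 32 to 137 per library. Marker lists without the gate genes fitted the names of the VAChT, Gad1, prt and repo gates. The VGlut gate could not be checked, since its list held VGlut only. ChAT and ChT summed to 624 to 830 CPM in the VAChT gate, against 29.4 to 100 in the VGlut gate. VGAT had 249 to 326 CPM in the Gad1 gate, against 59.9 to 72.6 in the VAChT gate. That gate was not free of other RNA, however. In its controls the fat body genes summed to 602 to 32882.5 CPM, where the 5 neuronal genes summed to 7137 to 9660. In its knock-in libraries the fat body genes summed to 7.66 to 628 CPM. Their part in any result of the Gad1 gate was not tested. The 9 glial genes summed to 7170 to 9106 CPM in the repo gate, against 254 to 903 in the VAChT gate. The 5 neuronal genes summed to 640 to 3447 CPM in the repo gate, below the 7934 to 9219 of the VAChT gate but above 0. The 7 Kenyon cell genes summed to 17190 to 21918 CPM in the prt gate, against 3723 to 5278 in the VAChT gate and 3183 to 3922 in the VGlut gate. Kenyon cells without a captured prt UMI can enter the VAChT gate.

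Most members lay in a narrow range of low levels, and mRpS5 ranked first. Over all barcodes the median member reached 35.5 CPM (mean of the 6 libraries), and 64 of the 72 lay between 15 and 60. In CPM, mRpS5 was followed by mRpL55 with 93.6, mRpL23 with 84.9, mRpL33 with 80.5 and mRpS33 with 79.9. Levels were also divided by the length of the longest annotated transcript, although 3′-end counts need not scale with length, and the order below mRpS5 differs between the scales. Per length, mRpS5 ranked first with 293 CPM per kilobase, followed by mRpL33 with 231, mRpL55 with 205, mRpS33 with 163 and mRpL23 with 137. mRpL45 ranked last on both scales, with 5.26 per kilobase.

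mRpS5 (FBgn0287187, 3L:24537236-24543534, plus strand, BDGP6.54 annotation) encodes a conserved protein of the small subunit, placed where the messenger enters the ribosome. It held 359, 407 and 418 CPM in control replicates 1 to 3 and 435, 405 and 477 in knock-in replicates 1 to 3. The groups overlap, since knock-in replicate 2 lies below control replicates 2 and 3. Its 120718 UMIs were 13.9% of all member UMIs, and its coefficient of variation over the 6 libraries, 9.30%, was the lowest of any member. The highest belonged to mRpS31, another small-subunit protein, at 36.8%, and the median member had 18.6%.

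mRpL55, a large-subunit protein that bacterial ribosomes lack, had 96.9, 103 and 85.5 CPM in the controls, against 93.4, 58.6 and 125 in the knock-in libraries. The knock-in group alone held both its lowest and its highest value. mRpL33 had 57.1, 87.2 and 86.5 in the controls, against 90.9, 70.3 and 90.9 in the knock-in libraries, and mRpL34 had 28.1, 46.4 and 37.1 against 51.0, 26.9 and 46.4. In these 2 small large-subunit genes control replicate 1 was among the lowest libraries, whereas it was the highest library for 50 of the 72 members. Knock-in replicate 2 was the lowest library for 64 of the 72.

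**Figure D1:**
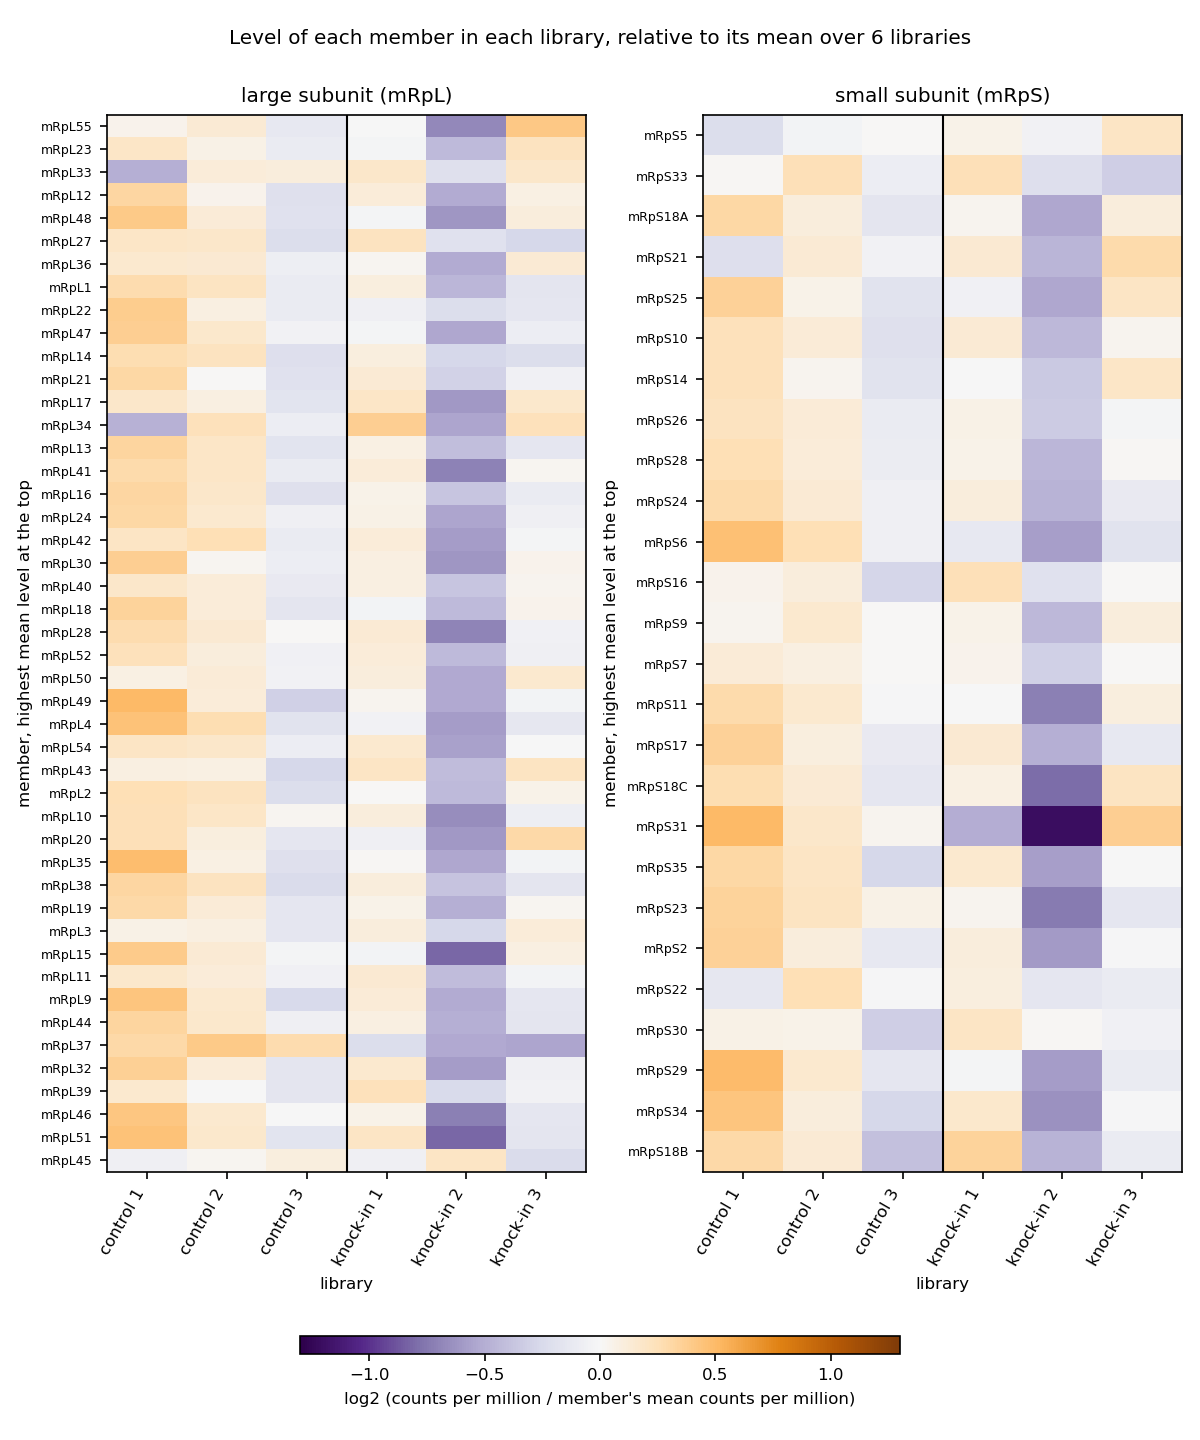
Each row is a member and each column a library; colour gives log2 of the member's CPM over its mean across the 6 libraries, orange above and purple below that mean. The purple column of knock-in replicate 2, the lowest library for 64 of 72 members, runs through nearly all rows.

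The genes of the members lie on 2L (12), 2R (12), 3L (17), 3R (21) and X (11). They are short, with a median of 783 exonic bases against 1734 over 13915 protein-coding genes, and with a median of 2 exon blocks against 3. Exons of 43 members overlap those of another gene, of the opposite strand for 42. The sources used here do not say if strand was used in the counting, so reads of overlapping pairs may not be fully separated. Among members named below this concerns mRpL11, mRpL23, mRpL28, mRpL30, mRpL34, mRpL41, mRpL42, mRpS22, mRpS23, mRpS31 and mRpS33, each over less than 10% of its exonic bases. It also concerns bonsai, over 6.32%.

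Against the controls, no member passed the test in the knock-in libraries. In edgeR's quasi-likelihood test with Benjamini-Hochberg adjustment over all 11200 features tested, 0 of 72 members were called at an adjusted p under 0.05, against a background of 0.223% (25 features). The smallest adjusted p of a member was 0.149. At an unadjusted p under 0.05 there were 2 members, both lower, against a background of 7.41% in that direction. The log2 fold changes of 65 members were below 0, with a median of -0.21 where that of all features was 0.00. In such sums, fewer cells of a type and less RNA per cell cannot be told apart.

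That median moved most with knock-in replicate 2. Set against the mean of the 3 controls, knock-in replicate 1 had a median log2 ratio of -0.02 over the members, replicate 2 of -0.59 and replicate 3 of -0.11. Without knock-in replicate 2 the median log2 fold change was -0.06, with 51 members below 0, and without control replicate 1 it was -0.13. Among the 3 deep libraries (over 50000000 UMIs, 1 control and 2 knock-in) the median log2 ratio was -0.31, and among the 3 shallow ones (2 control and 1 knock-in) it was -0.08.

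In the large subunit, 43 of the 46 tested members had a log2 fold change below 0, with a median of -0.24. The lowest was mRpL37 (FBgn0261380, 3R:10782563-10784092, minus strand), a protein found in mitochondrial but not in bacterial ribosomes. Its level was 24.0, 25.8 and 23.7 CPM in the controls, against 16.7, 13.6 and 13.4 in the knock-in libraries. Every knock-in library lay below every control. The group means were 24.5 ± 1.14 and 14.6 ± 1.87 (SD, n = 3 each), a log2 fold change of -0.75 with a standard error, derived from the test statistic, of 0.146. The difference exceeded the spread between libraries but missed the threshold over all features, at an unadjusted p of 0.00126 and an adjusted p of 0.149 in edgeR. DESeq2 on the same counts called it, at a log2 fold change of -0.73 and an adjusted p of 0.00131, the only member among the 3.4% of features that tool called. Over all alternatives its adjusted p ranged from 0.00131 to 0.422 and its log2 fold change from -0.84 to -0.67. The ratio was -0.77 among deep and -0.83 among shallow libraries.

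mRpL37 kept this pattern in each neuronal gate. In the VAChT gate the controls held 22.8, 25.1 and 26.8 CPM and the knock-in libraries 17.2, 13.6 and 12.8, a log2 fold change of -0.77 (standard error 0.171). In the Gad1 gate the values were 33.4, 28.9 and 28.1 against 18.7, 18.6 and 12.9, a log2 fold change of -0.83. In the VGlut gate the log2 fold change was -0.63 and in the prt gate -0.85, and in all 4 gates the groups did not overlap. Of all features, 8.55%, 6.66%, 6.84% and 9.35% were lower without overlap in the VAChT, VGlut, Gad1 and prt gates. Its adjusted p in edgeR was 0.190 in the VAChT gate, 0.746 in VGlut, 0.673 in Gad1 and 0.421 in prt. DESeq2 called it in the VAChT gate only, at an adjusted p of 0.0281. The gates are parts of the same libraries and do not replicate each other. In the repo gate mRpL37 had 25 UMIs in all and was not tested.

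**Figure D2:**
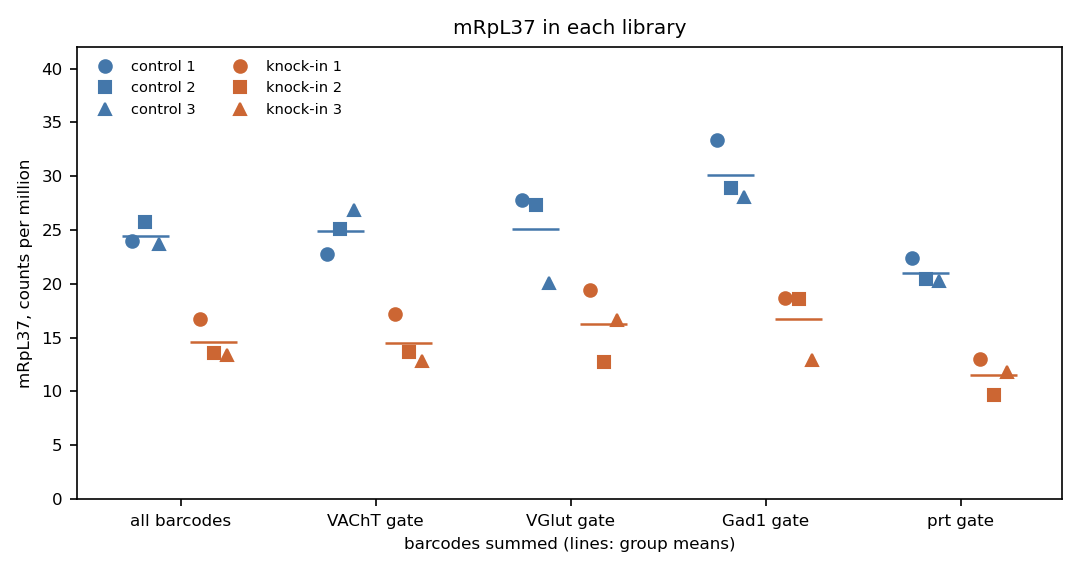
CPM of mRpL37 (y axis) in each library for all barcodes and for 4 gates (x axis); blue points are controls, orange points knock-in libraries, lines the group means. In each of the 5 sets the 3 knock-in points lie below the 3 control points, at 16.7, 13.6 and 13.4 against 24.0, 25.8 and 23.7 over all barcodes.

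At the other end of the large subunit were mRpL34, with a log2 fold change of 0.15, and mRpL33, with 0.13. Their standard errors were 0.279 and 0.194, and neither passed the test. Without control replicate 1 both turned negative, to -0.02 and -0.05, and mRpL34 did so without knock-in replicate 1 as well, to -0.01. The abundant mRpL55, mRpL23 and mRpL12 had log2 fold changes of -0.05, -0.11 and -0.15, and each was above 0 without knock-in replicate 2, at 0.20, 0.05 and 0.03. mRpL12 forms the flexible stalk that recruits translation factors, and mRpL23 sits at the exit of the peptide tunnel.

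In the small subunit, 22 of 26 members were below 0, with a median log2 fold change of -0.20. mRpS6 (FBgn0035534, 3L:4364550-4365243, plus strand) had 61.0, 53.1 and 42.4 CPM in the controls, against 40.7, 29.8 and 39.2 in the knock-in libraries. The groups did not overlap, but control replicate 3 and knock-in replicate 1 were close. Its log2 fold change was -0.51 (standard error 0.185), with an adjusted p of 0.366 in edgeR. mRpS31 had 39.2, 31.3 and 28.4 CPM in the controls, against 19.6, 12.1 and 35.8 in the knock-in libraries. Knock-in replicate 3 lay above control replicates 2 and 3, so the groups overlapped, and the log2 fold change of -0.55 carried a standard error of 0.373. Leaving out knock-in replicate 2 made it -0.25, and leaving out replicate 3 of that group -1.03. mRpS5 was the highest of the subunit, with a log2 fold change of 0.15 (standard error 0.117, adjusted p 0.617 in edgeR), and mRpS33 stood at -0.14.

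Groups that did not overlap were found for 3 members, all lower in the knock-in: mRpL37, mRpS6 and mRpS23. The background was 18.8% of features in either direction and 9.95% for lower, so the members' 4.17% was a smaller share. mRpS23, named after its values were seen, had 32.6, 29.6 and 26.9 CPM in the controls, against 26.3, 15.4 and 23.2 in the knock-in libraries, with control replicate 3 close to knock-in replicate 1. Counting all barcodes and the gates, its groups did not overlap in 5 sets, the same number as for mRpL37. The 2 subunits outside the rule lay within the range of the members, with log2 fold changes of -0.30 for tko and -0.14 for bonsai and no call.

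**Figure D3:**
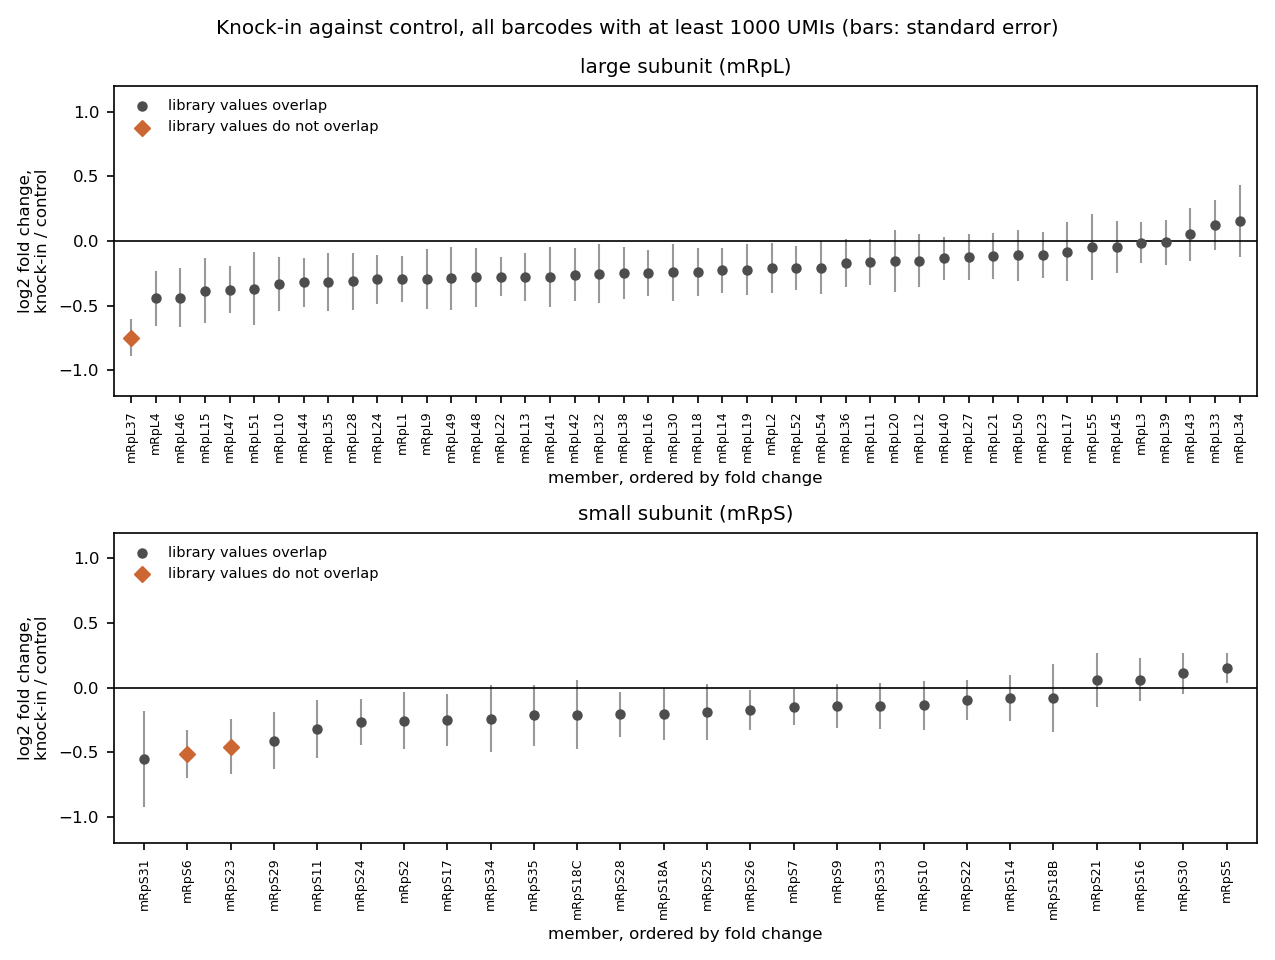
Log2 fold change of knock-in over control (y axis) for each of the 72 tested members, in order of size, with the large subunit above and the small subunit below. Bars give the standard error derived from the test statistic. Diamonds are the 3 members whose library values do not overlap; mRpL37, at -0.75, is the lowest of all.

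Summed over all members (without TMM scaling, the scaling of library sizes used for single genes), the controls held 3759, 3351 and 2842 CPM and the knock-in libraries 3164, 2165 and 3086. Knock-in replicates 1 and 3 lay above control replicate 3, and knock-in replicate 2 lay below all others. The means were 3318 ± 459 and 2805 ± 556 (SD, n = 3 each), so the difference, -512, was about as large as the pooled SD between libraries, 509.7. Leaving out knock-in replicate 2 made it -192, and leaving out control replicate 1 made it -291. The large subunit summed to 1864 ± 302 in the controls and 1525 ± 336 in the knock-in libraries, and the small subunit to 1454 ± 157 and 1280 ± 220.

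Within the gates the picture was the same, with 0 members called by edgeR in each. In the VAChT gate the median log2 fold change was -0.24 (67 of 72 below 0, background of calls 0.267%), in the VGlut gate -0.16 (58 below 0, background 0.195%) and in the Gad1 gate -0.14 (55 below 0, background 0.0521%). In the prt gate it was -0.32 (64 below 0, background 0.22%). Unadjusted p-values under 0.05 were found for 4, 3, 3 and 4 members, all lower, against backgrounds of 5.46%, 3.28%, 4.53% and 5.34% for lower features. DESeq2 called 1 member in the VAChT gate (background 1.82%), mRpL37, and 0 in the VGlut, Gad1, prt and repo gates (backgrounds 0.732%, 0.56%, 0.865% and 0.853%). Without knock-in replicate 2 the medians were -0.09, 0.02, 0.02 and -0.17 in the same order of gates.

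Members whose groups did not overlap numbered 8 in the VAChT gate, 5 in the VGlut gate and 8 in the Gad1 gate, all lower. The backgrounds for lower features were 8.55%, 6.66% and 6.84%, and the members' shares were 11.1%, 6.94% and 11.1%. In the prt gate 13 members were lower, 18.1% against a background of 9.35%, and 1 was higher, against 7.83%. The higher member was mRpS30, at 9.93, 11.6 and 8.69 CPM in the controls, against 16.4, 15.7 and 11.8 in the knock-in libraries, where control replicate 2 and knock-in replicate 3 nearly met. In the repo gate only 6 members passed the filter on low counts. None was called (background 0.0776%), 0 had an unadjusted p under 0.05 (background 13%), their median log2 fold change was -0.10, and 1 did not overlap (lower, background 11.1%).

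The test of whether the knock-in effect on a gene differed among the 5 gates called 0 of 72 members, against a background of 0.46%. At an unadjusted p under 0.05 it had 4 members, against 6.9% of features, and the smallest adjusted p was 0.453 in edgeR.

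Among the gates, the largest difference in the summed level was a smaller share of UMIs from members in the repo gate than in neurons. Summed members were at 2477, 2592 and 2227 CPM in the repo gate of the controls and at 2319, 1618 and 1583 in that of the knock-in libraries. The VAChT gate of the same libraries held 3958, 3402 and 3060, and 3212, 2169 and 3111. In all 6 libraries the repo gate was below the mean of the VAChT, VGlut and Gad1 gates, at 0.677 ± 0.101 of it (SD, n = 6). The lowest ratio, 0.481, came from knock-in replicate 3, and the next lowest was 0.663.

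**Figure D4:**
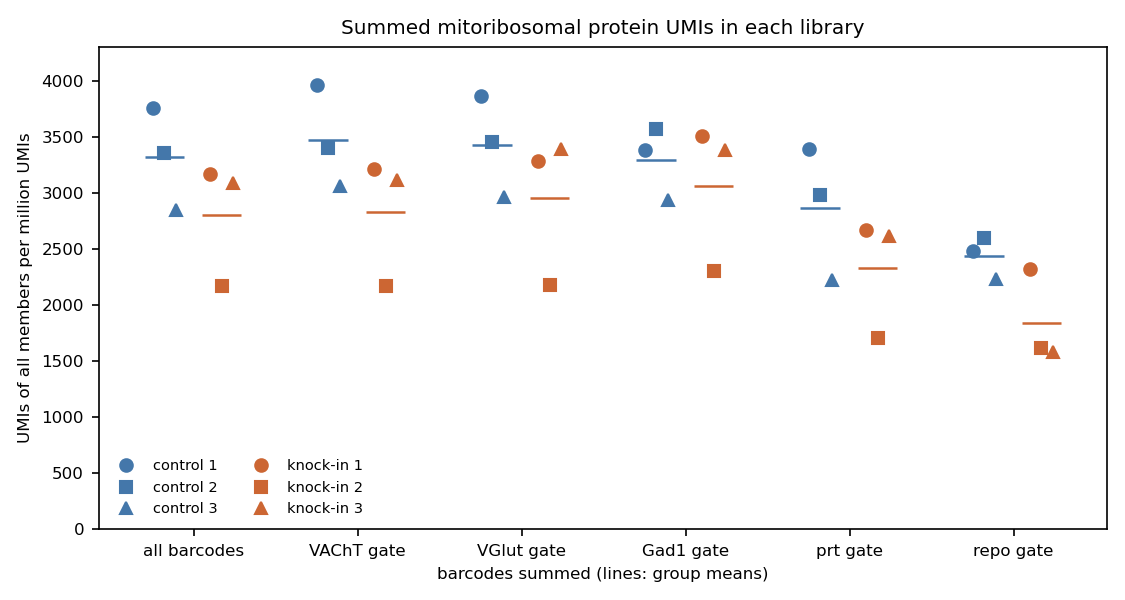
Summed CPM of all members (y axis, from 0) in each library for all barcodes and for the 5 gates (x axis); blue points are controls, orange points knock-in libraries, lines the group means. The repo gate, between 1583 and 2592, is lowest in 5 of the 6 libraries, and knock-in replicate 2 is the lowest library in the first 5 sets.

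Single-gene levels from here on are scaled over all 30 sums of library and gate together, so they differ slightly from those in the knock-in comparisons. With the library as a block, edgeR called 35 members lower and 3 higher in the repo gate than in the 3 neuronal gates. The background was 31% of features lower and 22.6% higher, and the members' shares were 48.6% and 4.17%. The median log2 fold change was -0.50, where that of all 8257 features was -0.22. All of these rest on few molecules, since the median member had 32 UMIs in the repo gate over the 6 libraries. The mitochondrially encoded share per barcode was 9.05% to 18.5% in the repo gate and 3.17% to 6.66% in the VAChT gate, and its part in these values was not tested.

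mRpS5 had the most molecules there, 297 in the repo gate. It held 169 to 307 CPM in the repo gate (median 236) and 352 to 476 in the VAChT gate (median 438), with no overlap. Its log2 fold change against the neuronal gates was -0.86 (standard error 0.0703, adjusted p 4.53e-11 in edgeR). The largest decreases were of large-subunit members: mRpL54 at -1.22, mRpL36 at -1.22 and mRpL11 at -1.17, with adjusted p-values of 0.000306, 3.23e-05 and 0.00187 in edgeR. mRpL11 is part of the base of the factor-binding stalk, and mRpL36 is a very small zinc-binding protein of the large subunit. mRpL54 had 17 UMIs in the repo gate, at 12.1, 6.84 and 6.27 CPM in the controls, against 27.8, 9.53 and 0 in the knock-in libraries. Only knock-in replicate 1 came near the mean of 31.7 in the VAChT gate, and without that library the log2 fold change was -2.05.

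mRpL45 went the other way, with a log2 fold change of 1.63 (standard error 0.377, adjusted p 0.000606 in edgeR). Its human counterpart helps to hold the ribosome at the inner membrane. It held 12.1, 17.1 and 50.2 CPM in the repo gate of the controls and 25.3, 9.53 and 0 in that of the knock-in libraries, from 26 UMIs in all. In the VAChT gate it stayed between 4.61 and 8.23. Knock-in replicate 3 lay below all 6 VAChT values and the other 5 libraries above them, and the call held in all 11 alternatives, with a log2 fold change from 1.22 to 1.86. mRpL28, at 0.50, and mRpL30, at 0.46, were also called higher, but lost the call in 6 and in 5 of the 11 alternatives. For mRpL28 these included leaving out control replicate 1 or 3 or knock-in replicate 1, which gave 0.44, 0.40 and 0.45, and for mRpL30 leaving out control replicate 2 or knock-in replicate 1, which gave 0.40 and 0.38.

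In the prt gate, too, members took a smaller share of all UMIs than in the VAChT gate, although not fewer UMIs per barcode. Its summed members were at 3387, 2984 and 2223 CPM in the controls, against 2671, 1706 and 2616 in the knock-in libraries, which is 0.820 ± 0.0548 of the VAChT gate of the same library (SD, n = 6). The ratio was below 1 in all 6 libraries, from 0.727 to 0.877. Barcodes of the prt gate were deeper, with a median of 2638 to 4740 UMIs against 1602 to 2409 in the VAChT gate, and their mitochondrially encoded share was lower, at 2.02% to 4.62%. The part of both in the ratio was not tested. The median barcode held 9, 12 and 8 member UMIs in the prt gate of the controls and 6, 8 and 6 in their VAChT gate. In the knock-in libraries it held 11, 4 and 12 in the prt gate and 8, 4 and 7 in the VAChT gate. The count per barcode was thus higher in the prt gate in 5 libraries and equal in knock-in replicate 2.

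edgeR called 19 members lower and 2 higher in the prt gate than in the VAChT gate. Backgrounds were 21.6% and 20.7%, and the members' shares 26.4% and 2.78%. The median log2 fold change was -0.15, where that of all features was -0.03. Small-subunit symbols made up 12 of the 19, out of 26 tested, and large-subunit symbols 7, out of 46.

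The largest decrease was that of mRpS30, whose mammalian counterpart is found in the large subunit in spite of its name. It had 9.88, 12.2 and 9.01 CPM in the prt gate of the controls and 17.5, 18.2 and 12.2 in that of the knock-in libraries. The VAChT gate held 20.4 to 26.6, above all 6. The log2 fold change was -0.78 (standard error 0.146, adjusted p 0.000105 in edgeR). mRpL41 followed at -0.67 and mRpL3, a conserved core protein near the catalytic centre, at -0.64. mRpL3 held 13.0 to 17.9 CPM in the prt gate and 20.8 to 26.5 in the VAChT gate, with no overlap.

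The 2 increases were those of mRpL12, at a log2 fold change of 0.46 (standard error 0.0681, adjusted p 4.09e-06 in edgeR), and mRpL42, at 0.34 (adjusted p 0.00674). mRpL12 had 110, 87.2 and 84.1 CPM in the prt gate of the controls and 97.1, 58.2 and 86.7 in that of the knock-in libraries. In the VAChT gate it had 77.4, 64.7 and 54.1, and 69.2, 49.2 and 62.1. The prt value was the higher within each library, although the ranges overlap across libraries. In the repo gate mRpL12 was called lower than in neurons, at -0.48.

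**Figure D5:**
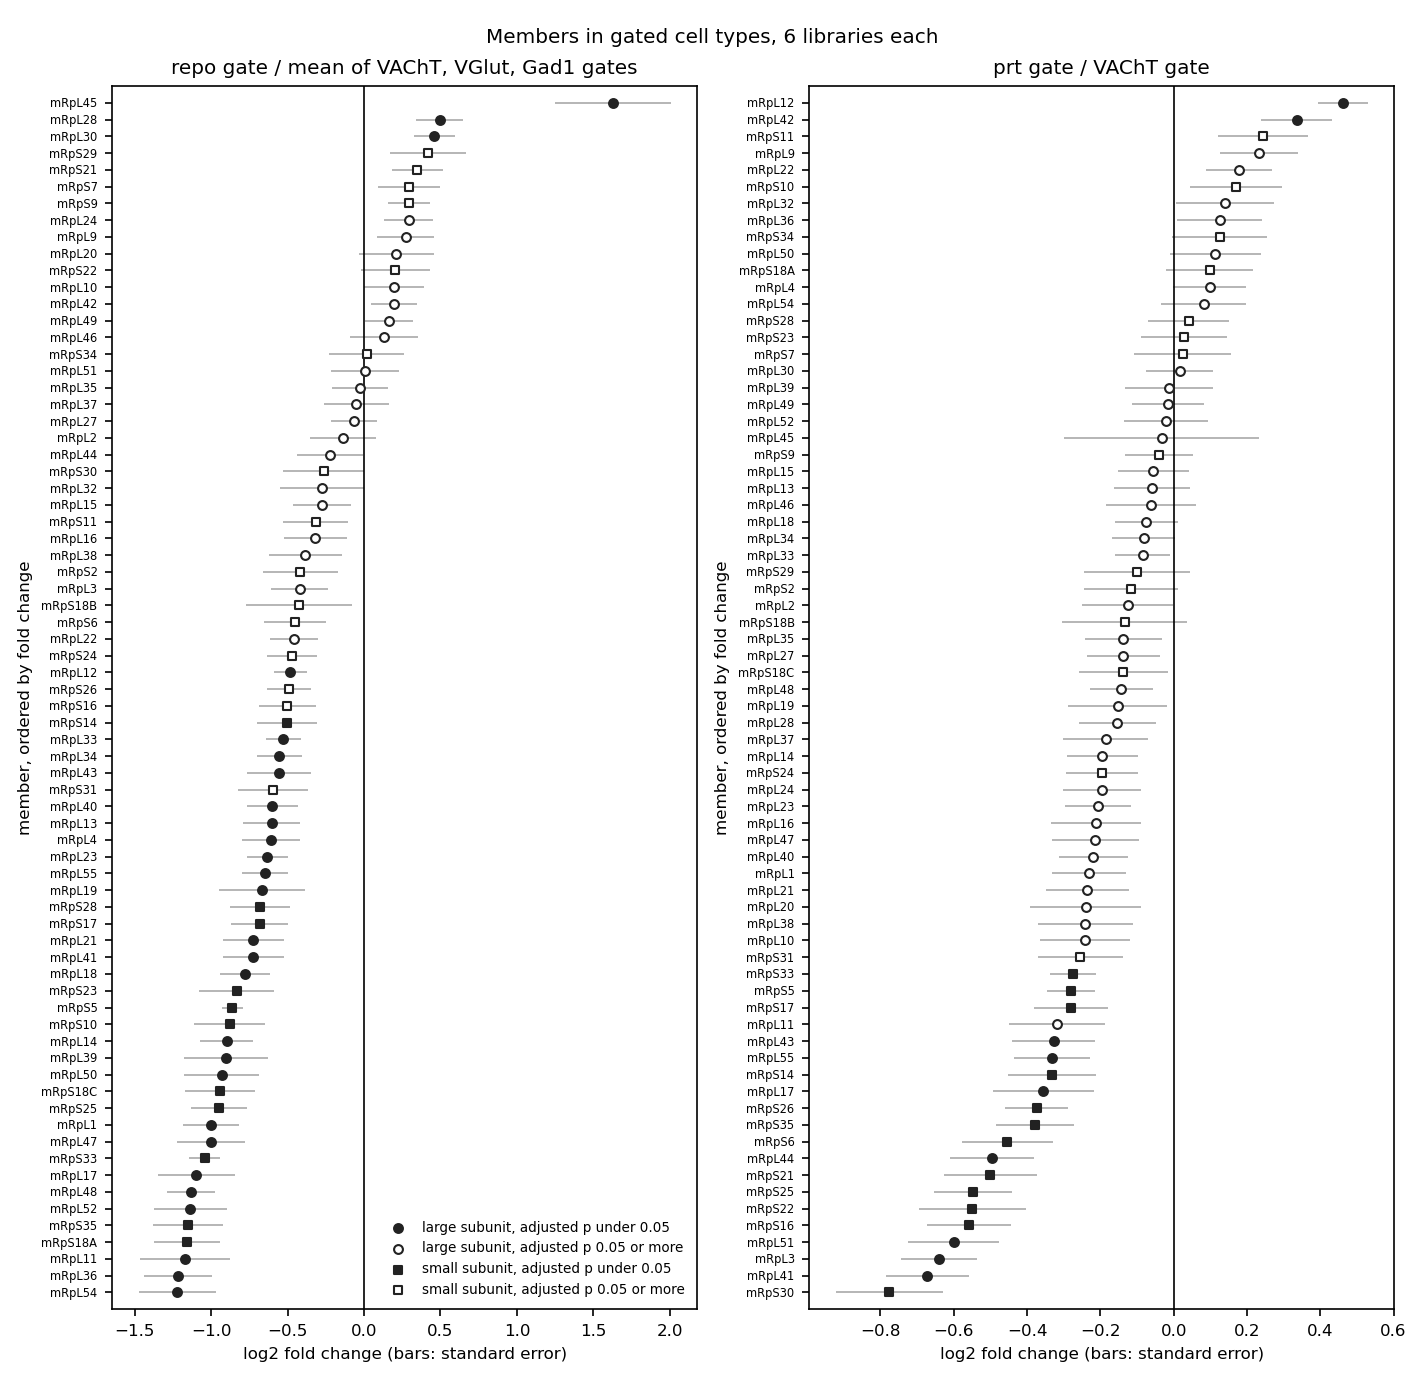
Log2 fold change (x axis) of each of the 72 members in the repo gate against the neuronal gates (left) and in the prt gate against the VAChT gate (right). Bars give the standard error derived from the test statistic. Filled symbols passed an adjusted p under 0.05: 35 lower and 3 higher on the left, 19 lower and 2 higher on the right.

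Among the 3 transmitter gates few members differed, although the count for the Gad1 gate depended on the gate's threshold. Between the VGlut and VAChT gates 1 member was called, higher, and none lower, against backgrounds of 2.75% and 4.69%. It was mRpS22, a small-subunit protein without a bacterial counterpart, whose human gene is mutated in a fatal mitochondrial disease of infancy. It held 27.4 to 36.5 CPM in the VGlut gate and 15.9 to 24.1 in the VAChT gate, with no overlap and a log2 fold change of 0.54 (adjusted p 0.00600 in edgeR). In the Gad1 gate 2 members were called higher than in the VAChT gate and none lower, against backgrounds of 5.34% and 7.84%. These were mRpL3, at 0.40 (adjusted p 0.00368), and again mRpS22, at 0.41 (adjusted p 0.0353). With gates at 2 UMIs in place of 1, 17 members were called higher in the Gad1 gate. The count of called members was 10 without control replicate 1 and 1 without control replicate 2, and mRpS22 lost its call without control replicate 2 or knock-in replicate 1 or 3, at 0.44, 0.44 and 0.34. mRpL3 held 26.9 to 36.1 CPM in the Gad1 gate, above the whole range of the VAChT gate. In the prt gate mRpS22 was called lower than in the VAChT gate, at -0.55, with 8.23 to 21.1 CPM. The summed members of the VGlut and Gad1 gates were at 1.01 ± 0.0428 and 1.02 ± 0.0930 of the VAChT gate (SD, n = 6), with 4 of 6 libraries above 1 in each. The lowest Gad1 ratio, 0.855, came from control replicate 1. It depended on the gate's threshold. With gates at 2 UMIs that library held 4000 CPM of members in the Gad1 gate and 3831 in the VAChT gate. The fat body genes summed to 602 to 32882.5 CPM in the Gad1 gate of the controls, against 538 to 3748 in their VAChT gate. In the knock-in libraries they summed to 7.66 to 628 and 9.95 to 599. Their part in the Gad1 values was not tested.

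Partner genes of mitochondrial translation were counted from lists chosen by symbol. Knock-in against control over all barcodes, edgeR called none of them. The 9 translation factors had 6 log2 fold changes above 0 and a median of 0.09. The 15 mitochondrial aminoacyl-tRNA synthetases, which charge the transfer RNAs, had a median of -0.08, the 11 tested transcription and RNA factors -0.36, and the 10 import and chaperone genes -0.14. The 13 mitochondrially encoded genes were all above 0, with a median of 0.67, 6 of them at an unadjusted p under 0.05 in edgeR, against 4.58% of all features higher at that threshold. The 35 tested nuclear subunits of complex I (median -0.20, 31 below 0) and the 87 tested cytosolic ribosomal proteins (median -0.22, 69 below 0) had medians near that of the members. Knock-in replicate 2 was the lowest library for both lists too. Complex I subunits summed to 3835 CPM there, against 5511 to 6827 in the other libraries, and cytosolic ribosomal proteins to 44107, against 55034 to 71296.

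Between cell types the lists parted. In the repo gate 81 of 84 tested cytosolic ribosomal proteins were called higher than in neurons (median log2 fold change 0.95), as were all 13 mitochondrially encoded genes (median 1.25), while 35 members of the mitochondrial ribosome were called lower. Nuclear complex I subunits were mixed, with 6 higher and 8 lower of 34. These counts stand against the 22.6% of all features called higher and the 31% called lower in this contrast. Of the import and chaperone list 6 of 10 were called lower, among them Hsp60A, the mitochondrial chaperonin, at -1.42. For the other lists the shares called lower were below that of all features: 2 of 9 translation factors, 3 of 14 synthetases and 2 of 11 transcription and RNA factors, of which 2 were called higher.

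In the prt gate 58 of 84 cytosolic ribosomal proteins were called higher than in the VAChT gate and 2 lower, whereas 22 of 34 complex I subunits and 12 of 13 mitochondrially encoded genes were called lower. Over all features 20.7% were called higher and 21.6% lower in this contrast. Of the 9 translation factors 5 were called lower and none higher, including the release factor mRF1 at -0.85 and the initiation factor mIF2 at -0.79. The import and chaperone genes had 4 higher and 2 lower of 10, with the outer-membrane pore Tom40 at 0.42 and the protease Lon at -0.68. The transcription and RNA factors had 3 higher and 2 lower of 11, above the share of all features for higher and below it for lower. The synthetases, with 1 higher and 2 lower of 14, were below both shares. In the 2 other contrasts the calls were few: of these lists together, ttm50 was lower and 1 cytosolic and 1 complex I gene were higher in the VGlut gate, and Hsp60A (0.34) and Hsc70-5 (0.32), 3 complex I genes and 2 cytosolic genes were higher and 1 cytosolic gene lower in the Gad1 gate.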

How the data were processed

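The deposited values were UMI counts per feature and barcode, raw whole numbers as the authors wrote them, not filtered to cells. Cell Ranger 4 wrote them per the file headers, and the submitters' processing notes name Cell Ranger 6.0. The genome build, the annotation and strand handling are not given in the sources used here. Positions come from an Ensembl BDGP6.54 annotation matched by identifier, in which all 73 members were found.

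Members and companion lists were chosen with earlier results of these data known. Counts were summed per library over barcodes with at least 1000 UMIs and over gates (at least 1 UMI of the gate gene, 0 of the others). No doublet caller was run. Barcodes with several gate genes entered no gate, and their number went with depth. They were 421 to 850 per library in the 3 shallow libraries, which held 5467 to 7932 barcodes. In the 3 deep libraries, which held 24278 to 30602, they were 5592 to 8668. The part of this in the gated results was not tested. edgeR 4.0.16 tested the sums (quasi-likelihood, TMM, filterByExpr, R 4.3.3), two-sided, Benjamini-Hochberg over all features, threshold 0.05; knock-in against control without covariates, gates with the library as a block over 30 sums. CPM of single genes are TMM-scaled within each fit, and summed levels are unscaled. Standard errors are the absolute log2 fold change over the square root of edgeR's F statistic, not fitted values. They need not match the p-values and may understate the uncertainty of members with few UMIs. In the repo gate this may hold for all members, also for mRpS5, which had the most UMIs there. DESeq2 1.42.0 was an alternative. limma 3.58.1 was loaded by edgeR. Replicates are pools, and no label says they were prepared separately, so the spread between them may be in part technical. edgeR's knock-in test over all barcodes and its repo contrast were checked first on simulated counts. The simulated gates gave all genes the same spread beyond counting error, which real genes need not have. The check therefore does not show how reliable single calls in the repo gate are. The other gate contrasts, the test among gates and DESeq2 were not checked in that way.

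Named members were those called in a knock-in test or in the test among gates, the 3 highest and 3 lowest knock-in effects, the 6 most abundant, and up to 3 called in each direction per gate contrast; of companion lists, at most 3 called genes in each direction. Alternatives were DESeq2's test and size factors, no low-count filter, each library left out, 500 or 2000 UMIs per barcode, up to 20% mitochondrial UMIs, the deepest 5% of barcodes left out, gates at 2 UMIs, and replicate or depth as a block.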

Additional observations from a re-analysis of the deposited data

How the results depend on the processing

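Knock-in against control, DESeq2's test called 1 member over all barcodes and 1 in the VAChT gate, mRpL37 in both; every other alternative called 0 there, and every alternative 0 in the other gates. DESeq2 called 381 features over all barcodes, where edgeR called 25. Deviations from the group means correlated at 0.165, 0.032 and 0.244 between same-numbered libraries, and at -0.253 to 0.177 between differently numbered ones. With 3 libraries per group these values cannot decide whether the replicate numbers pair the libraries. With the replicate block 0 members were called over all barcodes and the smallest adjusted p in edgeR was 0.178. The repo contrast gave 28 to 45 members called and the prt contrast 17 to 33, the latter with gates at 2 UMIs. The Gad1 contrast gave 4 with DESeq2 size factors, 1 without the low-count filter, 17 with gates at 2 UMIs, 4 at up to 20% mitochondrial UMIs, and 1 to 10 leaving out a library, with 10 without control replicate 1. The VGlut contrast gave 3 with gates at 2 UMIs, 2 at up to 20% mitochondrial UMIs and 1 to 2 leaving out a library. The causes were not tested. Signs turned for uncalled knock-in log2 fold changes only. Leaving out a library gave -0.053 (control replicate 1) to 0.239 for mRpL33, -0.019 (control replicate 1) to 0.384 for mRpL34, which was -0.012 without knock-in replicate 1, -0.301 to 0.195 (knock-in replicate 2) for mRpL55, which was 0.025 without control replicate 2 and 0.0048 with the depth block, -0.242 to 0.048 (knock-in replicate 2) for mRpL23, and -0.270 to 0.026 (knock-in replicate 2) for mRpL12. The mRpS22 call in the Gad1 gate was lost in 4 alternatives. The repo gate limits precision most, with 12 to 297 UMIs per member.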
